A study of Homo sapiens with 32 samples.

Results

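The 39 genes described here encode the machinery of RNA polymerase I and RNA polymerase III: 6 subunits found only in polymerase I, 2 subunits shared by polymerases I and III, 8 subunits of polymerase III, 7 polymerase I factors, and 16 polymerase III factors. The rule that chose them was a fixed list of gene symbols and used no measured value, but the list was drawn up with earlier results of these data known. All 39 were found among the 24238 genes of the deposited expression table, and all 39 were among the 22936 genes that passed a filter on low values, a floor of 1 FPKM reached in 3 or more groups. FPKM, the unit of the table, is the number of sequenced fragments scaled to gene length and sequencing depth.

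New RNA of the established human hepatoma line HUH7 was captured after a pulse of 5-ethynyl uridine (EU), a uridine analogue that is built into transcripts and lets them be pulled out. The groups released from mitosis were held in 2 mM thymidine for 24 hours, freed for 2 hours, blocked in mitosis with nocodazole at 0.06 ug/mL for 16 hours, shaken off, washed and replated, and were labelled at 0, 40, 80, 105, 165 and 300 minutes of release. The asynchronous culture of the same line was labelled without a block. Every pulse lasted 40 minutes in 0.5 mM EU, and since no source used here says whether the times count to its first or last minute, the 0 minute value can hold RNA from the start of the release. Each of these 7 groups has 3 samples in the labels, but the table holds 1 pooled authors' value per group, so no difference below has a replicate error, a replicate check or a test.

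Polymerase I transcribes the repeated genes of the large ribosomal RNA precursor in the nucleolus. Polymerase III transcribes short genes, among them those of transfer RNAs, 5S ribosomal RNA and U6 small nuclear RNA. Both are shut down in mitosis and restart as cells enter G1, and their subunits and factors are themselves encoded by genes that polymerase II transcribes, which is what was measured here.

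Among the genes that define liver cells, ALB, the albumin gene, had 128, 100.4, 166, 165, 357 and 662 FPKM at 0, 40, 80, 105, 165 and 300 minutes, against 2295 FPKM in the asynchronous culture. All 6 hepatoma markers examined were at least 2-fold lower at each of 0, 80 and 300 minutes than in that culture. The summed level of 4 blood markers lay between 18.2 and 57.6 FPKM in the release and was 12.5 FPKM in the asynchronous culture, with HBB at 0 in every column but that of 40 minutes. The summed level of 4 stroma and endothelium markers lay between 59.2 and 129 FPKM in the release and was 48.8 FPKM in the asynchronous culture. The part of these differences in the results below was not tested. Low values repeated in steps that fitted the whole span of a gene, introns included: at 0 minutes, 115 of 241 low genes with a single transcript (47.7%) lay within 3% of 1 step by span, against 71 of 1167 (6.08%) by exonic length. If a step is 1 read, relative depth was 1, 1.15, 1.49, 1.53, 1.75 and 1.66 at 0, 40, 80, 105, 165 and 300 minutes and 1.87 in the asynchronous culture. The reads behind these 39 genes at 0 minutes ran from 18.8 for SNAPC2 to 4483 for BDP1, with a median of 1177. The 95% counting intervals given below rest on those reads and cover counting error only. For the 9 members with several distinct transcript values, reads were worked out from the mean value and the whole gene span. Their reads and intervals are approximate, since the steps were read from genes with a single transcript. Of the 39 genes, 10 share at least 20% of their span with another annotated gene: POLR1C (XPO5, 88.4%), POLR1G (ERCC1, 83.2%), POLR1H (ZNRD1ASP, 32.6%), UBTF (AC004596.1, 70.9%), RRN3 (PDXDC1, 100%), BRF2 (ADGRA2, 24.7%), GTF3C2 (GTF3C2-AS1, 22.9%), SNAPC1 (AL137129.1, 40.7%), SNAPC5 (MAP2K1, 32.0%) and MAF1 (SHARPIN, 100%). SNAPC1 has its partner on the same strand and the other 9 have the partner named here on the opposite one. SNAPC5 also shares 29.5% of its span with AC116913.1, on the same strand. The values of these 10 genes are uncertain if counting ignored strand, which no source used here states, and those of SNAPC1 and SNAPC5 in either case.

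Most of the group had less labelled RNA in the mitotic block than in the asynchronous culture. At 80 minutes 24 of the 39 genes lay above that culture (61.5%), a share close to the 63.5% of all genes kept. At 0 minutes, 9 of the 39 genes were at least 2-fold lower than in that culture and 0 were at least 2-fold higher, where 19% of all genes kept were that much lower and 14.1% that much higher. The median log2 fold was -0.69 for the 39 genes and -0.14 for all genes kept. A higher value at 0 minutes than in the asynchronous culture was found for 4 of the 39 (10.3%, all genes 45.1%): POLR1H, SNAPC1, SNAPC4 and MAF1. That count was 6 with the columns set to equal medians and 17 with quantile normalization, for which no share of all genes was worked out. In a bulk culture, fewer cells transcribing a gene and less new RNA per cell cannot be told apart, and FPKM is relative to all captured RNA.

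At 40 minutes, 0 of the 39 genes were 2-fold above or below their 0 minute level, beside 3.24% of all genes kept higher and 2.05% lower. At 80 minutes, 14 of the 39 were at least 2-fold above 0 minutes (35.9%) and 0 were below, beside 20.1% higher and 2.66% lower of all genes kept, while among the 17522 genes that reached 10 FPKM in 3 or more groups 24.4% were higher and 1.36% lower. The median log2 fold at 80 over 0 minutes was 0.84 for the 39 genes and 0.31 for all genes kept. The counts then stayed level: 14 genes at least 2-fold above 0 minutes at 105 minutes (all genes 20.3%), 14 at 165 minutes (all genes 19.1%) and 13 at 300 minutes (all genes 18.9%). None was at least 2-fold lower at these times, where 3.99%, 7.11% and 8.82% of all genes kept were at 105, 165 and 300 minutes. By first time at 2-fold, 14 genes entered at 80 minutes, 3 at 105, 6 at 165 and 4 at 300 minutes. The other 12 did not reach 2-fold, a share of 30.8% beside 62.5% of all genes kept. The highest release value fell at 80 minutes for 16 of the 39 (41.0%, all genes 23.1%), at 105 minutes for 4 (10.3%, all genes 12.5%), at 165 minutes for 7 (17.9%, all genes 13.1%) and at 300 minutes for 11 (28.2%, all genes 21.1%). It was at 0 minutes for none, where 16.4% of all genes had theirs.

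**Figure D1:**
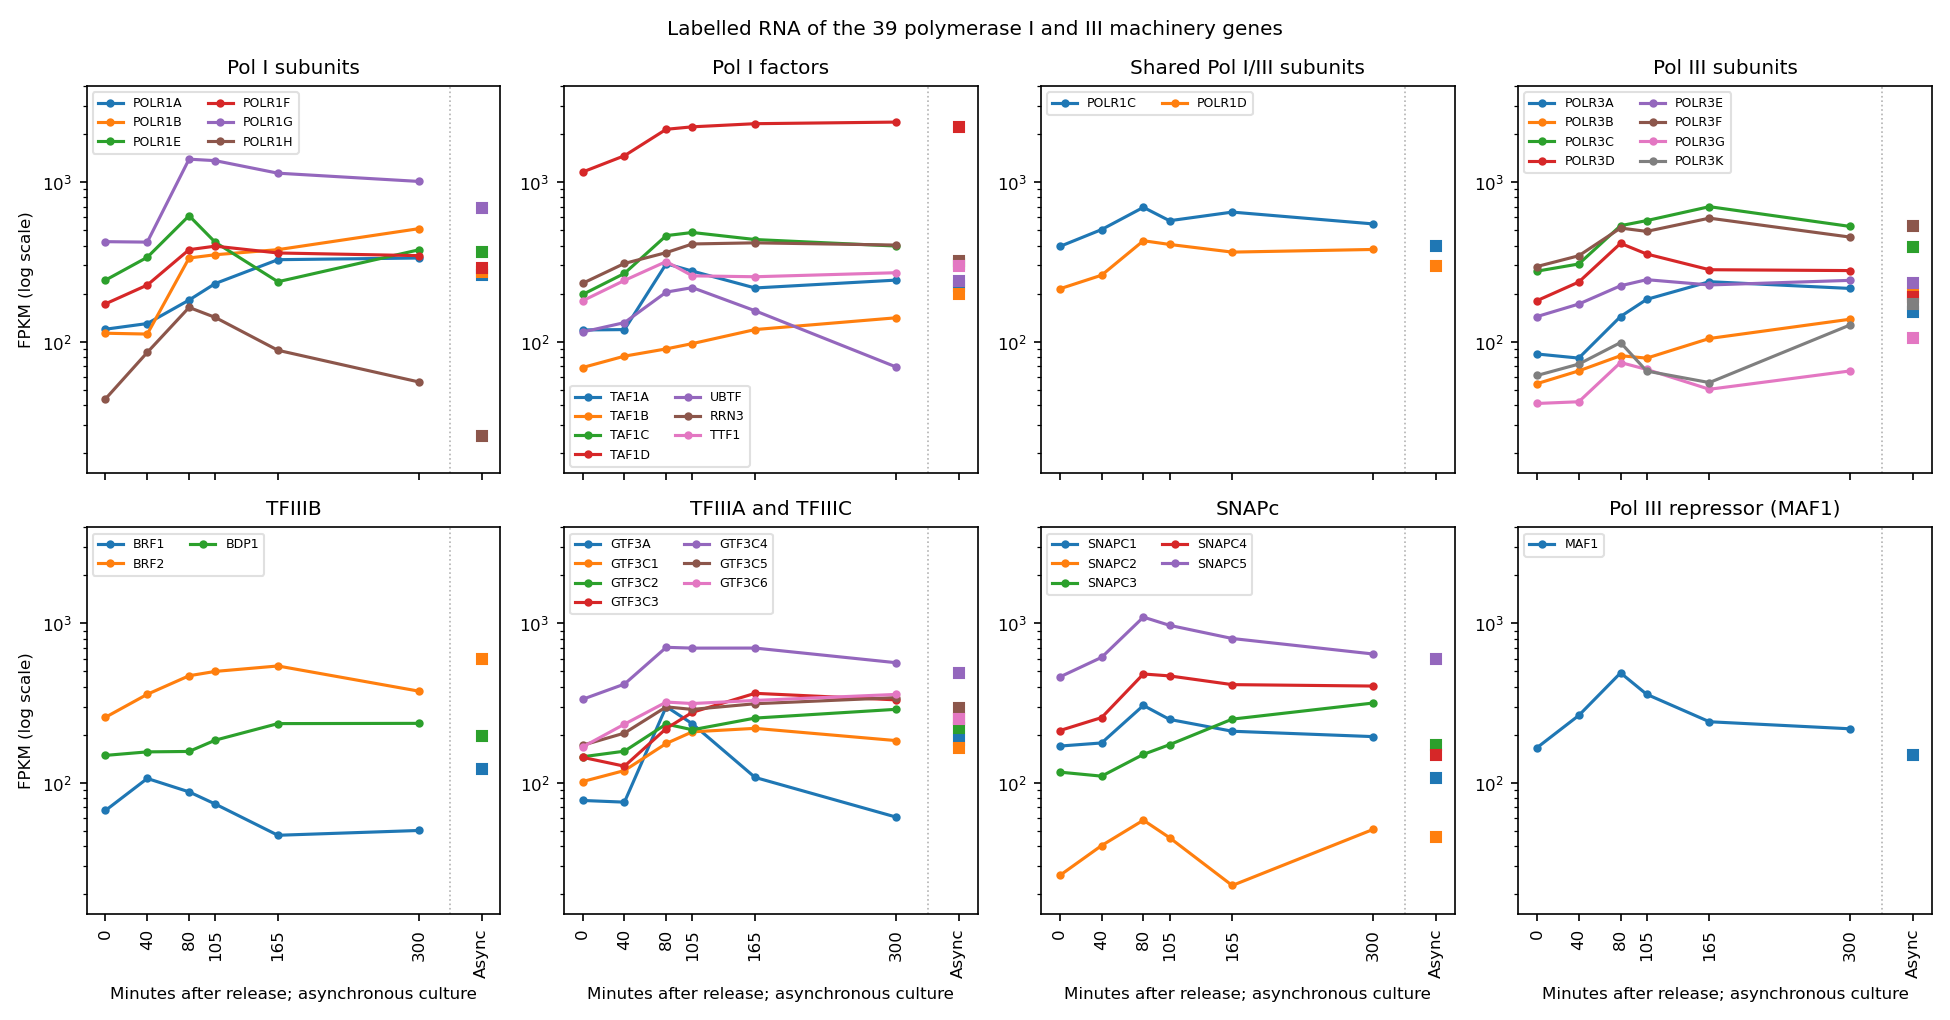
FPKM on a log axis for the 39 genes by role, as lines over the 6 release times in minutes and as squares for the asynchronous culture, with 1 pooled authors' value per point and no error bars. Most lines are higher at 80 than at 40 minutes, while GTF3A, UBTF and BRF1 lie below their 0 minute level at 300 minutes and POLR1A, POLR3B, TAF1B and SNAPC3 are highest at 300 minutes.

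The size of this step depended on how the columns were scaled. With the columns set to equal medians, 5 of the 39 genes were at least 2-fold higher at 80 than at 0 minutes, and with quantile normalization 2 were, GTF3A and POLR1H. The share of all genes past 2-fold was not worked out under either scaling, so counts under them have no background. At least 1 of these scalings gave the opposite direction for 15 of the 39: POLR1A, POLR1C, TAF1B, RRN3, TTF1, POLR3E, POLR3F, BRF1, BRF2, BDP1, GTF3C2, GTF3C3, GTF3C5, SNAPC1 and SNAPC3. Against the asynchronous culture, 3 genes were at least 2-fold lower at 0 minutes with equal medians and 1 with quantile normalization, POLR3B, 2 were higher under each, and 13 of the 39 changed direction. At 300 over 0 minutes, 3 genes were at least 2-fold higher with equal medians and 1 with quantile normalization, POLR1B, and 11 changed direction. The values of single genes given below are as deposited. Folds between 300 and 80 minutes, and between 300 minutes and the asynchronous culture, changed direction with scaling for 4 and 1 of the 39 genes.

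Promoters are shown for the 3 genes with the highest and the 3 with the lowest fold at 80 over 0 minutes, so that the sequences at both ends of that comparison stand beside each other. Each is the 250 bases before the annotated start, from RefSeq on GRCh38.p14, written 5′ to 3′ on the strand of the gene. Capitals mark matches on either strand to any of 7 motifs: the E-box CACGTG, the core letters CGGAAG that ETS factors bind, the core letters GCATGCG of NRF1 sites, the letters AAGATGG of YY1 sites, the core letters CCAAT of NF-Y sites, the letters TATAAA of the TATA box, and the letters GGGCGG of SP1 sites. GTF3A (chr13:27424369-27424618, plus strand), POLR1H (chr6:30061015-30061264, plus strand) and POLR1G (chr19:45406394-45406643, plus strand) had the highest folds.
GTF3A: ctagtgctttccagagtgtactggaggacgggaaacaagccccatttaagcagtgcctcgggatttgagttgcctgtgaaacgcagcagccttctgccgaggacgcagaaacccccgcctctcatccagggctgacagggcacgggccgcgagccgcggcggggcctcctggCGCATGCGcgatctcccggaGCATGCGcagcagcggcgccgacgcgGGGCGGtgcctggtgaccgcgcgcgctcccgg
POLR1H: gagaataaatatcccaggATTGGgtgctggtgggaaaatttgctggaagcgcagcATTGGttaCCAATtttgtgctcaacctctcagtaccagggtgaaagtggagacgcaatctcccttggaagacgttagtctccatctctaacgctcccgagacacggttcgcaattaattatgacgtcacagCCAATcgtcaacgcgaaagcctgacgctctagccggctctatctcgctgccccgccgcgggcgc
POLR1G: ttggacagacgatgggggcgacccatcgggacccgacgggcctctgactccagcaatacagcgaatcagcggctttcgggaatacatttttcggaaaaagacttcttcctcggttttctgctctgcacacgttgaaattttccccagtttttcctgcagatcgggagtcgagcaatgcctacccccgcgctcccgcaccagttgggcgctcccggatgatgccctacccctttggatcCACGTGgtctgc
BRF1 (chr14:105315590-105315839, minus strand), SNAPC3 (chr9:15422626-15422875, plus strand) and BDP1 (chr5:71455401-71455650, plus strand) had the lowest.
BRF1: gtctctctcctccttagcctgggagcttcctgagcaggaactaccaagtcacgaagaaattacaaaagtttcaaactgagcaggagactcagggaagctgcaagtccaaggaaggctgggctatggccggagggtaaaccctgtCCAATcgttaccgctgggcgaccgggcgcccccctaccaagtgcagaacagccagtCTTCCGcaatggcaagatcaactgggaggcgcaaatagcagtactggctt
SNAPC3: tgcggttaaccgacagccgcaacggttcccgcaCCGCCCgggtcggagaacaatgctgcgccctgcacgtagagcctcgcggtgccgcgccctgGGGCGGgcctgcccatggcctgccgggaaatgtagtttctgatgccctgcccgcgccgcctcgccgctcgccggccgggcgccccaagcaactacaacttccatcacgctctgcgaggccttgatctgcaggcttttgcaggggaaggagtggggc
BDP1: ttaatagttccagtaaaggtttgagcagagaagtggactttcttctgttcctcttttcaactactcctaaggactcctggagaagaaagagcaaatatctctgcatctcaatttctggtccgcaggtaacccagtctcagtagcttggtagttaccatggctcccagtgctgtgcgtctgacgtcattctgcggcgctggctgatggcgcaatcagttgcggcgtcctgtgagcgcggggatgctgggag
The GTF3A promoter held 3 matches to the NRF1 core, a pair of which overlap on opposite strands, and 1 to SP1, that of POLR1H held 4 matches to the NF-Y core, and that of POLR1G held 1 E-box. The BRF1 promoter held 1 NF-Y core and 1 ETS core, that of SNAPC3 held 2 SP1 matches, and that of BDP1 held none of the 7 motifs.

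Promoters of 33 of the 39 genes were in the RefSeq table, each of 250 bases before and 50 after the start. The ETS core CGGAAG was in 19 of the 33 (57.6%), beside 25.6% of the 16490 promoters of genes kept and 19.9% of all 27305 promoters. The E-box CACGTG, the site class bound by MYC and its partners among others, was in 7 of the 33 (21.2%), beside 8.79% of genes kept and 7.43% of all. SP1 letters were in 51.5% of the 33 and 57.9% of genes kept, NF-Y letters in 33.3% and 36.3%, NRF1 letters in 9.09% and 5.24%, YY1 letters in 9.09% and 6.53%, and TATAAA in 3.03% and 8.65%. Both polymerases had carriers of the ETS core: POLR1A, POLR1B, TAF1A, TAF1B, TAF1C, TAF1D, RRN3 and TTF1 on the polymerase I side, and POLR3A, POLR3C, BRF1, GTF3A, GTF3C1, GTF3C2, GTF3C3, GTF3C4, GTF3C6 and SNAPC5 on the polymerase III side, with the shared POLR1C. The match of GTF3A reaches into the 50 bases after the start, which are not printed. The E-box carriers were POLR1G, POLR3A, POLR3C, POLR3E, GTF3C2, GTF3C4 and GTF3C6. A match to these letters is a description and not a site, and the median GC content was 60.0% for the 33 promoters and 62.7% for genes kept.

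Among the 6 subunits found only in polymerase I, 5 were at least 2-fold higher at 80 than at 0 minutes (83.3%, all genes 20.1%), and the exception was POLR1A. With equal medians 3 of the 6 were, and with quantile normalization 1 was. POLR1A encodes the largest subunit, which with POLR1B forms the active centre. It had 119, 129.7, 182, 231, 326 and 334 FPKM at 0, 40, 80, 105, 165 and 300 minutes, against 262 FPKM in the asynchronous culture. Its values climbed at each release time, and it first reached 2-fold at 165 minutes. POLR1B, the second-largest subunit, had 113, 111, 334, 350.1, 377 and 510.2 FPKM at the same times, against 275 FPKM in the asynchronous culture. It stepped up between 40 and 80 minutes and went on to its highest value at 300 minutes, a log2 fold over 0 minutes of 2.17 ± 0.09 (95% counting interval). That was the largest of the 39 genes at this time and still 1.58 after quantile normalization. The ratio of POLR1A to POLR1B was 1.06, 1.16, 0.545, 0.66, 0.865 and 0.655 at 0, 40, 80, 105, 165 and 300 minutes, against 0.953 in the asynchronous culture. The pair stood near parity in the block and apart at 80 minutes.

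POLR1G, which with POLR1E forms a dimer resembling the polymerase II factor TFIIF, had 423, 420.1, 1391, 1362, 1136 and 1009 FPKM at 0, 40, 80, 105, 165 and 300 minutes, against 683 FPKM in the asynchronous culture. Its values at 0 and 40 minutes were nearly equal, and at 80 minutes it was 3.28-fold higher than at 0 minutes. POLR1E peaked at 80 minutes with 615 FPKM, against 243 FPKM at 0 minutes, and was back at 237 FPKM at 165 minutes. At 300 minutes it was higher again with 376 FPKM, against 365 FPKM in the asynchronous culture. POLR1F, a subunit of the stalk that contacts RRN3, was 2.18-fold higher at 80 than at 0 minutes and then stayed between 346 and 396 FPKM. POLR1H, a small subunit of the RNA cleavage activity, had 43.7, 85.5, 164, 142, 88.2 and 55.8 FPKM at 0, 40, 80, 105, 165 and 300 minutes, against 25.5 FPKM in the asynchronous culture. All 6 of its release values lay above the asynchronous one, which made it the only such polymerase I subunit, and its log2 fold at 80 minutes over the asynchronous culture was 2.64 ± 0.41. These POLR1H values rest on few reads, 52.1 at 0 minutes and 56.8 in the asynchronous culture.

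The pair POLR1C and POLR1D, which form the assembly core of both polymerases, had smaller folds. POLR1C had 394, 503, 694, 572, 648 and 546 FPKM at 0, 40, 80, 105, 165 and 300 minutes, against 399 FPKM in the asynchronous culture. POLR1D had 214, 261, 428, 406, 364 and 378 FPKM at the same times, against 299 FPKM in the asynchronous culture. As gene values, neither reached 2-fold over 0 minutes on the FPKM + 1 scale, and both were highest at 80 minutes. Their log2 folds at 80 over 0 minutes were 0.81 for POLR1C and 0.998 for POLR1D, which fell just short of the threshold. The 3 distinct transcript values of POLR1D gave log2 folds between 0.86 and 1.11 there, on both sides of 2-fold.

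Of the 7 polymerase I factors, 2 were at least 2-fold higher at 80 than at 0 minutes (28.6%, all genes 20.1%). At 300 over 0 minutes 4 were, the TAF1 genes (57.1%, all genes 18.9%), with log2 folds of at most 1.04. The median log2 folds of the 7 were 0.82 and 1.00. With equal medians or quantile normalization, 0 of the 7 were 2-fold higher at either time, and 1 was 2-fold lower at 300 minutes. SL1, the promoter complex of polymerase I, holds the TATA-binding protein and the products of TAF1A, TAF1B, TAF1C and TAF1D. TAF1A and TAF1C were 2.59-fold and 2.33-fold higher at 80 than at 0 minutes, while TAF1B had 68.7, 81.0, 89.9, 97.1, 119 and 141 FPKM at 0, 40, 80, 105, 165 and 300 minutes, against 198 FPKM in the asynchronous culture. TAF1B thus lay below the asynchronous level at every release time, and was at least 2-fold lower there at both 0 and 80 minutes. TAF1D had the highest FPKM of the 39 genes in every group, with 1156, 1462, 2141, 2219, 2321 and 2376 FPKM at 0, 40, 80, 105, 165 and 300 minutes, against 2224 FPKM in the asynchronous culture. Its span holds small nucleolar RNA genes on the same strand, SNORA25 and SNORD5 among them, whose part in that level was not tested.

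UBTF, the HMG-box protein that coats active ribosomal gene repeats, had 115, 131, 204, 218, 156 and 69.3 FPKM at 0, 40, 80, 105, 165 and 300 minutes, against 240.1 FPKM in the asynchronous culture. It was highest at 105 minutes and lowest at 300 minutes, 2.92-fold lower than at 80 minutes and 3.43-fold lower than in the asynchronous culture. Its 3 distinct transcript values gave log2 folds between -1.56 and -1.54 at 300 over 80 minutes. RRN3, which bridges polymerase I to SL1, had 232, 309, 361, 409, 416 and 403 FPKM at 0, 40, 80, 105, 165 and 300 minutes, against 318 FPKM in the asynchronous culture. Its values formed a plateau from 105 minutes on. The ratio of RRN3 to UBTF was 2.02, 2.35, 1.77, 1.88, 2.67 and 5.81 at the 6 times, against 1.32 in the asynchronous culture. RRN3 has closely similar pseudogene copies, so its level is uncertain. TTF1, which ends polymerase I transcription, had 180.1, 242, 317, 258, 255 and 270.1 FPKM at 0, 40, 80, 105, 165 and 300 minutes, against 299 FPKM in the asynchronous culture. It stayed within 2-fold of its 0 minute level throughout.

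Of the 8 polymerase III subunits, 1, POLR3D, was at least 2-fold higher at 80 than at 0 minutes. Their median log2 fold was 0.79, beside 1.45 for the 6 polymerase I subunits and 0.98 for 7 subunits found only in polymerase II, of which 3 were called. After quantile normalization the medians were 0.05 for the polymerase III subunits, 0.59 for the polymerase I subunits and 0.12 for the polymerase II subunits. POLR3A, the largest subunit, had 83.5, 78.8, 144, 184, 237 and 215 FPKM at 0, 40, 80, 105, 165 and 300 minutes, against 154 FPKM in the asynchronous culture. POLR3B, its partner in the active centre, had 54.4, 65.5, 81.5, 78.7, 105 and 138 FPKM at the same times, against 198 FPKM in the asynchronous culture. POLR3A was above its asynchronous level from 105 minutes on, whereas POLR3B remained below its own at every release time and at 0 minutes was 3.59-fold lower, the largest deficit of the 39 genes and one that held under each scaling tried. The ratio of POLR3A to POLR3B was 1.53, 1.2, 1.76, 2.34, 2.27 and 1.56 at the 6 times, against 0.778 in the asynchronous culture.

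POLR3C, POLR3F and POLR3G encode a trimer particular to polymerase III that helps open the promoter. POLR3C and POLR3F were highest at 165 minutes, with 701 and 594 FPKM, against 276 and 295 FPKM at 0 minutes. POLR3G had 40.9, 41.9, 73.9, 66.9, 50.2 and 65.5 FPKM at 0, 40, 80, 105, 165 and 300 minutes, against 105 FPKM in the asynchronous culture, and was below its asynchronous level at every release time. Its paralog POLR3GL, which takes its place in another form of the enzyme, had 52.9, 47.1, 55.9, 42.4, 38.5 and 41.3 FPKM at 0, 40, 80, 105, 165 and 300 minutes, against 29.6 FPKM in the asynchronous culture, and was above that level at every release time. The ratio of POLR3G to POLR3GL was 0.774, 0.891, 1.32, 1.58, 1.31 and 1.58 at the 6 times, against 3.54 in the asynchronous culture. It lay below 1 at 0 and 40 minutes only. POLR3D and POLR3E, the TFIIF-like pair of polymerase III, differed in course: POLR3D peaked at 80 minutes with 413 FPKM, against 180.4 FPKM at 0 minutes, and POLR3E stayed between 224 and 244 FPKM from 80 to 300 minutes. POLR3K, the small subunit of RNA cleavage and termination, had 61.3, 72.2, 98.5, 65.3, 55.3 and 127 FPKM at 0, 40, 80, 105, 165 and 300 minutes, against 173 FPKM in the asynchronous culture. It had its lowest value at 165 minutes and its highest release value at 300 minutes.

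TFIIIB places polymerase III on its genes. The 3 TFIIIB genes among the 39, which leave out that of the TATA-binding protein, were below their asynchronous level at every release time except BDP1 at 165 and 300 minutes. BRF1, the form used at transfer RNA and 5S genes, had 67.1, 106, 87.7, 73.6, 46.9 and 50.2 FPKM at 0, 40, 80, 105, 165 and 300 minutes, against 122 FPKM in the asynchronous culture. By the mean of its transcripts it was the only 1 of the 39 genes with its highest release value at 40 minutes. That maximum did not hold for every transcript: the highest of its 5 distinct values was 152 FPKM at 40 minutes and 174 FPKM at 80 minutes. BRF1 never reached its asynchronous level, and at 300 minutes it was 2.4-fold lower, with transcript log2 folds between -1.45 and -0.90. BRF2, which serves U6-type promoters, had 258, 359, 469, 499, 540 and 375 FPKM at 0, 40, 80, 105, 165 and 300 minutes, against 601 FPKM in the asynchronous culture. It too was below that level at every time. The ratio of BRF2 to BRF1 was 3.84, 3.37, 5.35, 6.78, 11.5 and 7.47 at 0, 40, 80, 105, 165 and 300 minutes, against 4.92 in the asynchronous culture. It was highest at 165 minutes. BDP1, the subunit common to both forms, had 148, 156, 157, 185, 235 and 236 FPKM at 0, 40, 80, 105, 165 and 300 minutes, against 197 FPKM in the asynchronous culture. Its first 3 release values differed by little, and it had the smallest step of the 39 genes at 80 over 0 minutes, a log2 fold of 0.08 ± 0.05 that was -0.32 with equal medians.

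GTF3A, the zinc finger protein TFIIIA that recruits the machinery to 5S genes, had the widest range of release values of the 39 genes, 4.93-fold between the highest and the lowest FPKM. It had 77.5, 75.6, 300.3, 234, 108 and 60.9 FPKM at 0, 40, 80, 105, 165 and 300 minutes, against 187 FPKM in the asynchronous culture. Its value at 40 minutes was near that at 0 minutes, followed by a log2 fold of 1.94 ± 0.21 at 80 over 0 minutes, the highest of the 39 genes, and a log2 fold of -2.28 ± 0.19 at 300 over 80 minutes, the lowest. By 300 minutes GTF3A was 3.03-fold below its asynchronous level, and these folds past 2 held under equal medians and quantile normalization. The 6 TFIIIC genes, whose products bind the internal boxes of transfer RNA genes, followed other courses, and 1 of them, GTF3C4, was at least 2-fold higher at 80 than at 0 minutes. GTF3C1, the largest TFIIIC subunit, had 102, 119, 176, 209, 219 and 184 FPKM at 0, 40, 80, 105, 165 and 300 minutes, against 165 FPKM in the asynchronous culture. Its maximum was broad, from 105 to 165 minutes. GTF3C3 had 144, 127, 219, 277, 364 and 331 FPKM at 0, 40, 80, 105, 165 and 300 minutes, against 252 FPKM in the asynchronous culture. It had the lowest fold of the 39 genes at 40 over 0 minutes and its maximum at 165 minutes. GTF3C4 was the strongest of the 6, with 707 FPKM at 80 minutes and 334 FPKM at 0 minutes. GTF3C2, GTF3C5 and GTF3C6 were highest at 300 minutes with 289, 342 and 358 FPKM, against 146, 172 and 168 FPKM at 0 minutes.

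The products of the 5 SNAPc genes form a complex that binds small nuclear RNA promoters of both polymerase II and polymerase III. All 5 genes were above their asynchronous level at 300 minutes. At 80 minutes 3 of the 5, SNAPC2, SNAPC4 and SNAPC5, were at least 2-fold higher than at 0 minutes (60%, all genes 20.1%). With equal medians or quantile normalization 0 of the 5 were. SNAPC4, the largest subunit, had 213, 256, 481, 468, 412 and 404 FPKM at 0, 40, 80, 105, 165 and 300 minutes, against 149 FPKM in the asynchronous culture. SNAPC1 had 169.9, 178, 305, 249.6, 210.5 and 195 FPKM at the same times, against 107 FPKM in the asynchronous culture. Both were above the asynchronous level at every release time, and at 80 minutes SNAPC4 was 3.2-fold and SNAPC1 2.83-fold above that culture, past 2-fold under each scaling tried. SNAPC3 followed another course, with 117, 110.1, 151, 173, 251 and 316 FPKM at 0, 40, 80, 105, 165 and 300 minutes, against 173 FPKM in the asynchronous culture. It was the only 1 of the 39 genes at least 2-fold higher at 300 than at 80 minutes. SNAPC5 peaked at 80 minutes with 1093 FPKM, against 461 FPKM at 0 minutes. SNAPC2 was the weakest of the group, with 26.2, 40.4, 58.3, 45.3, 22.7 and 51.1 FPKM at 0, 40, 80, 105, 165 and 300 minutes, against 45.6 FPKM in the asynchronous culture. It rested on 18.8 to 62.3 reads in the release columns, so its log2 fold of 1.12 ± 0.74 at 80 over 0 minutes is imprecise.

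MAF1, the repressor that holds polymerase III in check when nutrients are short, had 166, 264, 488, 359, 241 and 218 FPKM at 0, 40, 80, 105, 165 and 300 minutes, against 149 FPKM in the asynchronous culture. Its release values were all above the asynchronous one and formed a single peak at 80 minutes, 2.93-fold above 0 minutes and 3.27-fold above the asynchronous culture. SHARPIN, which covers the whole MAF1 gene on the opposite strand, had 100, 142, 319, 218, 132 and 155 FPKM at 0, 40, 80, 105, 165 and 300 minutes, against 152 FPKM in the asynchronous culture, with a maximum at 80 minutes too. Its part in the MAF1 values was not tested.

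**Figure D2:**
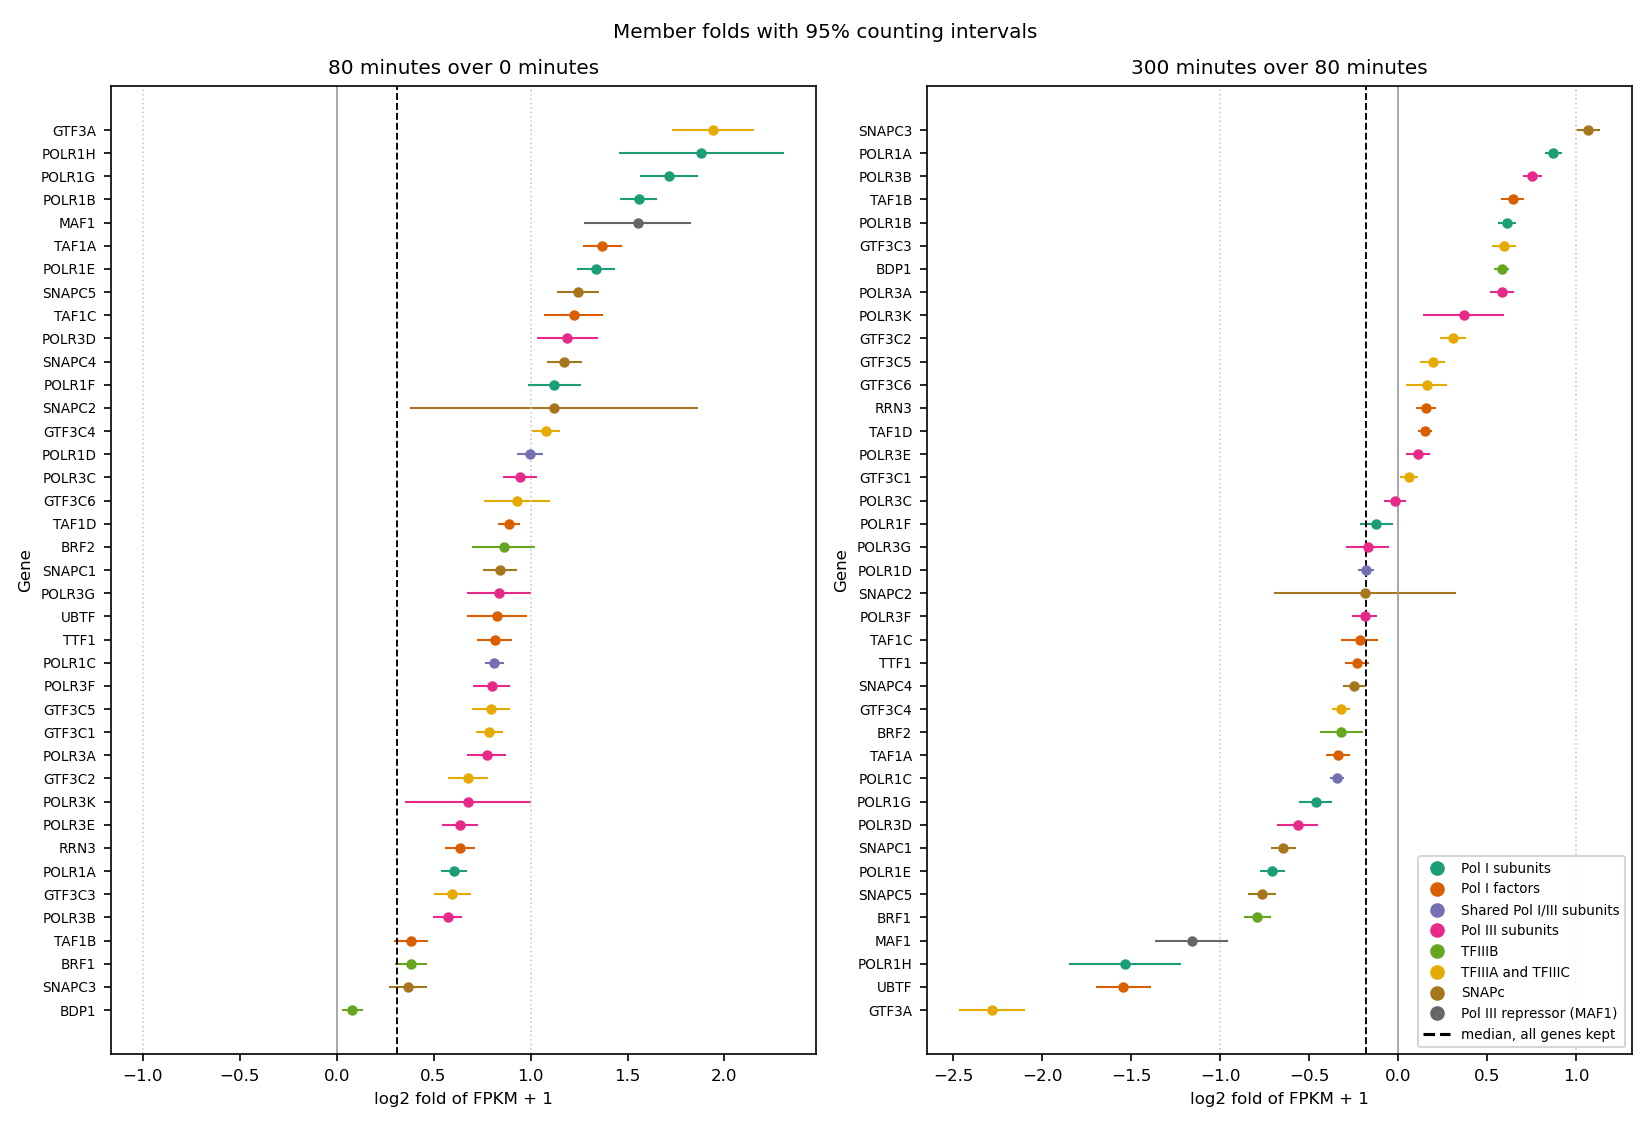
Log2 fold of FPKM + 1 for each of the 39 genes at 80 over 0 minutes (left) and at 300 over 80 minutes (right), coloured by role, with bars for the 95% counting interval only, a dashed line at the median of all genes kept and dotted lines at 2-fold. On the left all 39 points lie above 0, from BDP1 at 0.08 to GTF3A at 1.94, and on the right they spread from GTF3A at -2.28 to SNAPC3 at 1.06.

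Between 80 and 300 minutes the median of the group was equal to that of all genes, and smaller shares of the group passed 2-fold. At 300 over 80 minutes, 4 of the 39 (10.3%) were at least 2-fold lower, GTF3A, UBTF, POLR1H and MAF1. SNAPC3 was the 1 gene (2.56%) at least 2-fold higher. Of all genes kept, 13.8% were that much lower and 8.12% that much higher. The median log2 fold was -0.18 for the 39 genes and -0.18 for all genes. The log2 folds were -2.28 ± 0.19 for GTF3A, -1.55 ± 0.15 for UBTF, -1.54 ± 0.32 for POLR1H, -1.16 ± 0.21 for MAF1 and 1.06 ± 0.07 for SNAPC3. All 5 kept their call under equal medians, and under quantile normalization MAF1 lay at the threshold with -0.9994 and just missed it. POLR1A with 0.87 ± 0.05 and POLR3B with 0.75 ± 0.05 followed SNAPC3 at the upper end without reaching 2-fold. Of the 4 genes that were lower, POLR1H, UBTF and MAF1 are among the 10 genes with at least 20% of their span overlapped by another annotated gene.

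At 80 minutes, 6 of the 39 genes were at least 2-fold above the asynchronous culture (POLR1H, MAF1, SNAPC4, SNAPC1, POLR3D and POLR1G) and 2 were at least 2-fold below it (POLR3B and TAF1B), beside 19.4% and 10.8% of all genes kept. Of the 6 calls, that of POLR1G was lost with equal medians, at a log2 fold of 0.98, and those of POLR1G and POLR3D with quantile normalization, at 0.70 and 0.94, and 5 of the 39 genes changed direction under a scaling. At 300 minutes, 2 were at least 2-fold above it (SNAPC4 and POLR1H) and 3 below it (UBTF, GTF3A and BRF1), beside 9.84% and 8.57% of all genes kept. The call of POLR1H at 300 minutes was lost with quantile normalization, at 0.91. The median log2 fold over the asynchronous culture was 0.18 at 80 minutes and 0.26 at 300 minutes for the 39 genes, and 0.29 and 0.11 for all genes kept. At 300 minutes the medians by role were 0.85 for the 5 SNAPc genes, 0.46 for the 6 polymerase I subunits, 0.21 for the 7 TFIIIA and TFIIIC genes, 0.10 for the 7 polymerase I factors, -0.08 for the 8 polymerase III subunits and -0.68 for the 3 TFIIIB genes. By that time 29 of the 39 genes were above their asynchronous level (74.4%, all genes 59.0%). Of the 3 TFIIIB genes in the 39, BDP1 alone was. All comparisons with the asynchronous culture share that 1 column, and all comparisons with 0 minutes share the 0 minute column.

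**Figure D3:**
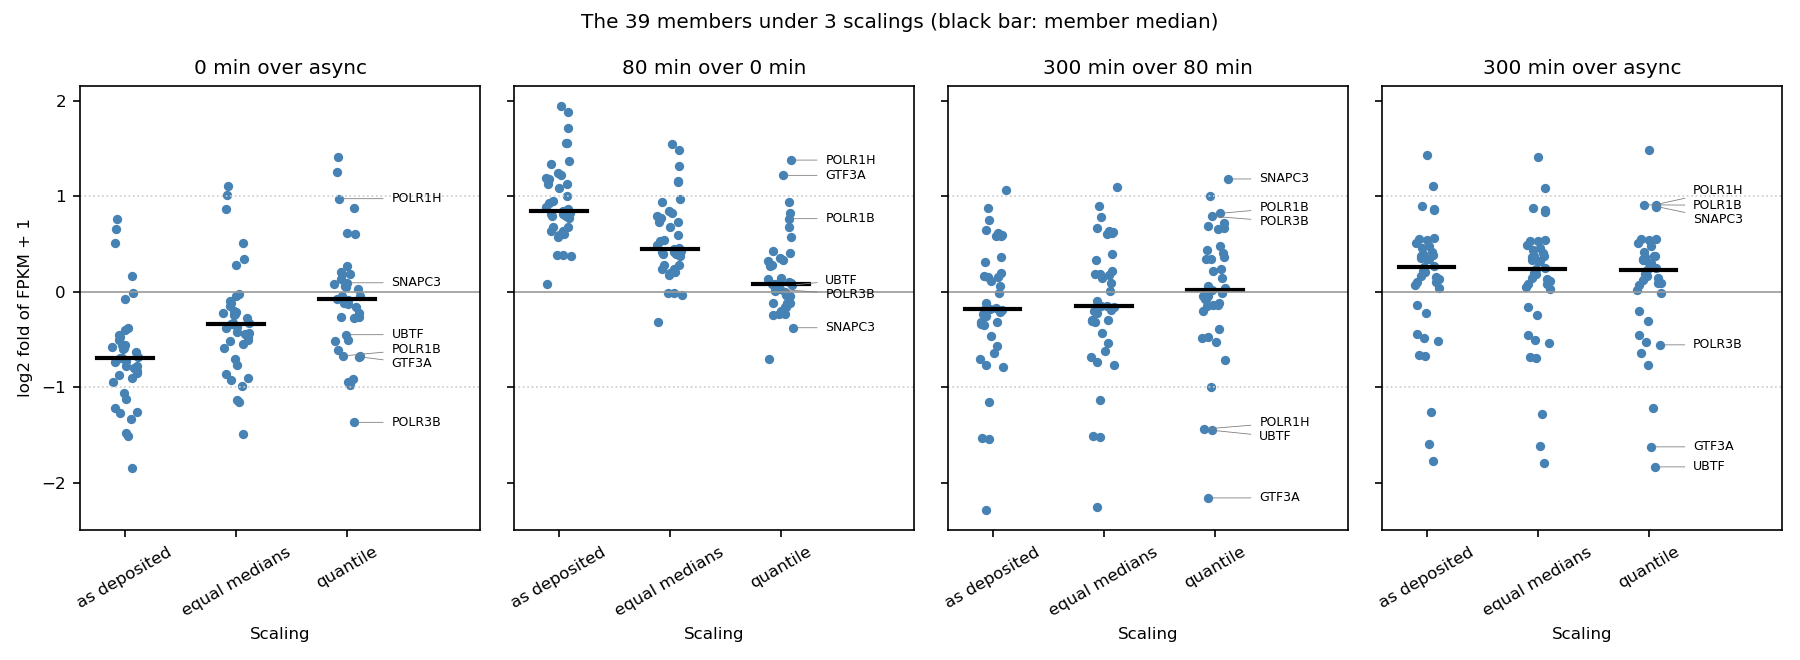
Log2 fold of FPKM + 1 for the 39 genes in 4 comparisons with the columns as deposited, set to equal medians, or quantile normalized, with a black bar at the median of the 39 and dotted lines at 2-fold. The cloud of 80 over 0 minutes moves down from left to right within its panel, to 2 genes past 2-fold, while GTF3A and UBTF stay past 2-fold below the asynchronous culture at 300 minutes under all 3 scalings.

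Gene span, which the choice of genes did not use, went with the timing. Across the 39 genes, Spearman's rho between span and log2 fold was -0.67 at 80 over 0 minutes and 0.51 at 300 over 80 minutes, and across all 22936 genes kept it was -0.22 and 0.23. These are descriptions over genes that share the same 3 columns, not tests. In the 13 genes with a span under 15 kb the median log2 fold at 80 over 0 minutes was 1.19, in the 19 genes of 15 to 50 kb it was 0.82, and in the 7 genes over 50 kb it was 0.57. For all genes kept the medians in these classes were 0.54, 0.40 and 0.07. Of the 7 long genes (POLR1A, TAF1B, POLR3A, POLR3B, BRF1, BDP1 and GTF3C1), 6 had their highest release value at 165 or 300 minutes. BRF1, the exception, had it at 40 minutes by the mean of its transcripts. In all genes kept over 50 kb that share was 46.2%. Among the short genes 4 of 13 were highest at 165 or 300 minutes, beside 25.5% of all genes kept under 15 kb. The median span was 15.7 kb for the polymerase I subunits, 28.9 kb for the polymerase III subunits and 106 kb for TFIIIB, so role and span cannot be told apart in the differences between these lists.

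**Figure D4:**
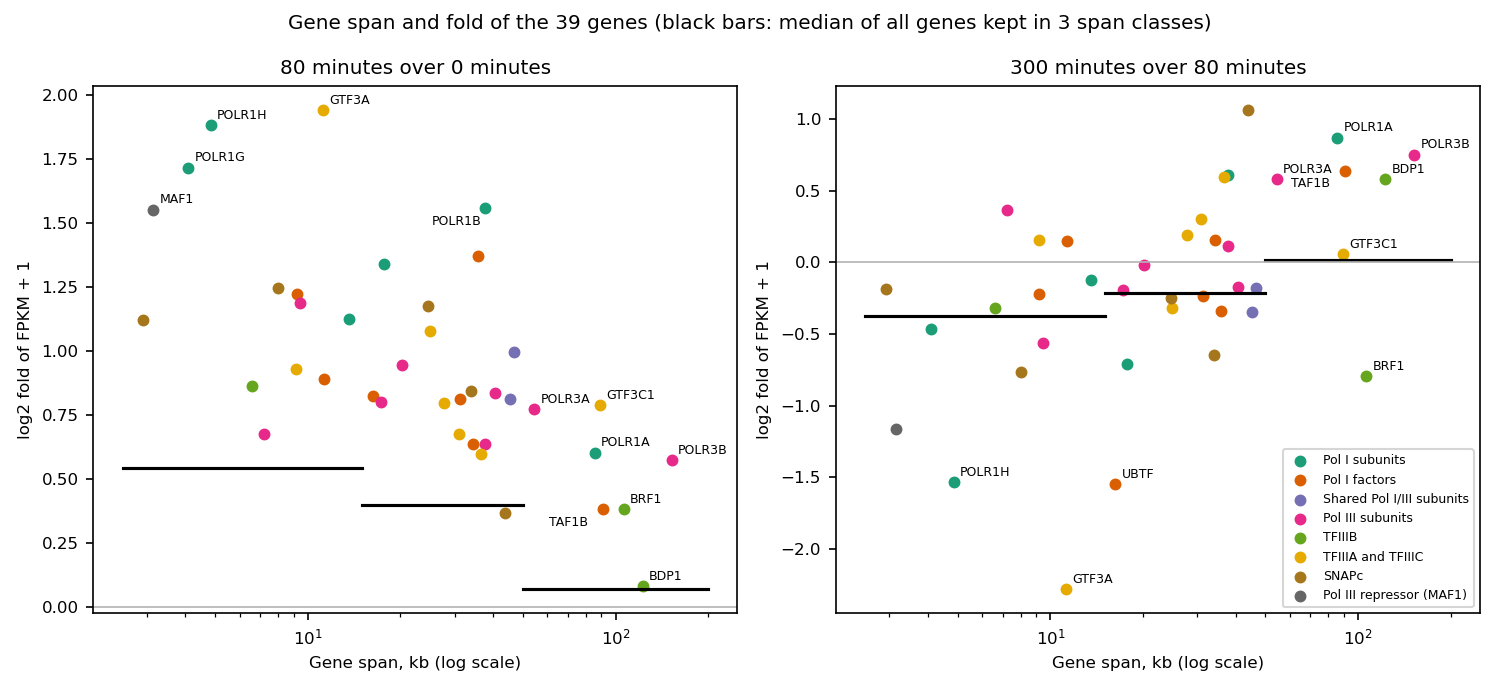
Log2 fold of FPKM + 1 against gene span in kb on a log axis for the 39 genes, coloured by role, at 80 over 0 minutes (left) and 300 over 80 minutes (right), with black bars at the median of all genes kept in 3 span classes. On the left the long genes BDP1, BRF1 and TAF1B are lowest with SNAPC3, and on the right GTF3A, UBTF and POLR1H, none with a span over 16.3 kb, are lowest.

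Other genes of the same pathway, taken from fixed lists, placed the 39 in context. TBP, the TATA-binding protein in SL1, TFIIIB and the polymerase II factor TFIID, had 224, 304, 939.8, 654, 483 and 353 FPKM at 0, 40, 80, 105, 165 and 300 minutes, against 345 FPKM in the asynchronous culture. It had a single peak at 80 minutes, as MAF1 did. Of the 9 genes of subunits common to all 3 polymerases and of remaining partners, 6 were at least 2-fold higher at 80 than at 0 minutes and 0 lower. Their median log2 fold was 1.18, and 20.1% of all genes kept were that much higher and 2.66% lower. With equal medians 2 of the 9 were, at a median of 0.78, and with quantile normalization 2 were, at a median of 0.37. Of the 10 partners of ribosomal gene transcription, 1 was at least 2-fold higher at 80 than at 0 minutes (10%), below the 20.1% of all genes kept. It was SIRT7, a deacetylase of the nucleolus, with 879.7 FPKM at 80 minutes and 289 FPKM at 0 minutes. MYBBP1A, a nucleolar protein, had 122, 134, 172, 251, 456 and 679 FPKM at 0, 40, 80, 105, 165 and 300 minutes, against 188 FPKM in the asynchronous culture. Its highest value was at 300 minutes, like those of POLR1A and POLR1B. TOP2A, the topoisomerase of dividing cells, had 269.6, 277, 218, 111, 82.7 and 63.3 FPKM at 0, 40, 80, 105, 165 and 300 minutes, against 613 FPKM in the asynchronous culture. It was the 1 partner at least 2-fold lower at 300 than at 0 minutes (10%, all genes 8.82%). Among 7 regulators and RNA binders tied to polymerase III, 1 was at least 2-fold higher at 80 than at 0 minutes (14.3%, all genes 20.1%). It was SSB, which binds the ends of polymerase III transcripts. At 300 over 0 minutes 3 were, LARP7, MYC and MTOR (42.9%, all genes 18.9%). With equal medians or quantile normalization, 0 of the 7 were at least 2-fold higher at 80 or 300 than at 0 minutes.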

How the data were processed

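EU-labelled RNA of HUH7 cells was sequenced from stranded libraries depleted of ribosomal RNA, per the labels' protocols, with 3 samples in each of the 7 groups used. The deposited table holds 1 FPKM value per RefSeq transcript and group, made by the authors with 1 column per group, per the file headers. The sources used here do not say how the 3 samples of a group were joined or whether counting used strand. Tools named in the submitters' processing notes are bcl2fastq, Bowtie2 2.2.9, TopHat and bedtools, with genome build hg19. Unlabelled and spike-in groups of the 32 samples and 11 groups in the labels were not analysed here, and 0 value columns were left unused.

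A gene's value was the mean of its distinct transcript values. Folds are on the log2(FPKM + 1) scale, which understates changes of low genes, for genes that reached 1 FPKM in 3 or more groups, and a gene was called at 2-fold. With 1 value per group there was no test, SD or p-value, and linear modelling planned for per-library values was not run. Low values gave the reads behind each FPKM as described in the report, using RefSeq spans of GRCh38.p14 in place of hg19. Poisson 95% intervals of fold changes cover counting error only, and without molecular identifiers fragments cannot be taken as independent molecules. Overlapping genes were taken from GENCODE release 29. The steps were checked on simulated data, with Python 3.11.15, pandas 2.3.3, NumPy 2.4.6, SciPy 1.17.1 and matplotlib 3.10.9. Genes named in each comparison were the 3 with the largest and the 3 with the smallest fold, and a fixed set of 19 members has values in every group. Any other member named was chosen after its values were seen. The members and lists were chosen with earlier results of these data known. Alternatives were pseudocounts of 0.1 and 5 FPKM, no filter, a filter at 10 FPKM, equal medians, quantile normalization, the transcript with the highest mean, and leaving out overlapped members.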

Additional observations from a re-analysis of the deposited data

How the results depend on the processing

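Scaling moved the counts most, and total FPKM per column ran from 6.24e+06 at 0 minutes to 1.06e+07 at 105 minutes. The counts under equal medians and quantile normalization have no share of all genes beside them, since none was worked out. With equal medians, the block against the asynchronous culture had 2 of the 39 genes at least 2-fold up and 3 down, the genes higher than at 0 minutes numbered 5 at 80, 4 at 105, 6 at 165 and 3 at 300 minutes, 1 was lower at 300 minutes, 5 first reached 2-fold at 80 minutes and 29 at no time. With quantile normalization, the block against the asynchronous culture had 2 up and 1 down, 2 were higher than at 0 minutes at 80, 1 at 105, 0 at 165 and 1 at 300 minutes, 1 was lower at each of 165 and 300 minutes, 2 were higher at 300 than at 80 minutes, 1 was higher at 300 minutes than in the asynchronous culture, 2 first reached 2-fold at 80 minutes and 36 at no time. Quantile normalization also moved the members' median log2 fold, taken relative to that of all genes kept, to -0.090 for 0 minutes over the asynchronous culture (-0.56 as deposited), 0.15 for 80 over 0 minutes (0.53), 0.13 for 105 (0.55), 0.14 for 165 (0.60) and 0.24 for 300 over 0 minutes (0.64), 0.00653 for 80 minutes over the asynchronous culture (-0.11) and 0.22 for 300 minutes over it (0.15). The cause was not tested. A filter at 10 FPKM, which leaves 17522 genes to set the median against, gave -0.29 for 0 minutes over the asynchronous culture, and 0.34, 0.33, 0.36 and 0.39 for 80, 105, 165 and 300 over 0 minutes. With a pseudocount of 5 FPKM the relative median of 80 minutes over the asynchronous culture was -0.027, and 1 gene was higher at 300 minutes than in that culture. Without the 10 overlapped genes, an alternative chosen after seeing the data that leaves 29, 1 was lower at 300 than at 80 minutes with a relative median of 0.16, 2 were higher at 80 minutes against the asynchronous culture, with a relative median of -0.20, 1 was higher at 300 minutes than in it, 10 were highest at 80 minutes and 7 reached 2-fold at no time. All 31 comparison values kept their size with a pseudocount of 0.1 FPKM, without a filter and with the transcript of highest mean. Of 351 fold values of single genes, 82 were past 2-fold, and 38 of these held with equal medians and 19 with quantile normalization. No paired analysis was possible because each group entered as 1 pooled value, and no replicate could be left out. Depth limits SNAPC2 and POLR1H, the genes with under 100 reads at 0 minutes; the 95% counting half-width at 80 over 0 minutes had a median of 0.10 and a maximum of 0.74 on the log2 scale.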

Other observations

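Few products of the polymerases were in this table. None of the 8 polymerase I product symbols looked up was in it, and of 22 polymerase III product symbols 10 were. RNU6ATAC, a small nuclear RNA of the minor spliceosome, had 1.84, 1.13, 109.9, 42.0, 14.9 and 0.896 FPKM at 0, 40, 80, 105, 165 and 300 minutes, against 3.47 FPKM in the asynchronous culture. VTRNA1-1, a vault RNA, had 63.2, 188, 255, 198, 24.6 and 102 FPKM at the same times, against 13.9 FPKM in the asynchronous culture. VTRNA1-3 had 1089.7, 909, 686, 552, 822 and 759 FPKM, against 250.2 FPKM in the asynchronous culture. RNU6ATAC peaked at 80 minutes, VTRNA1-1 was high from 40 to 105 minutes, and VTRNA1-3 was highest at 0 minutes. These genes are short, with spans of 0.126, 0.098 and 0.088 kb for RNU6ATAC, VTRNA1-1 and VTRNA1-3. Few reads stand behind their peaks as well as their low values, so these courses are imprecise. The products found did not share a course, and RNU6-2 was highest at 40 minutes, with 470 FPKM.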
